A study of Mus musculus with 12 samples.

Results

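Interleukin-12, interleukin-18 and interleukin-27 reach T cells through receptor chains that are encoded by separate genes, and 8 genes of this system are described here across 12 RNA-seq libraries of mouse OT-I T cells. They were taken by name: Il12rb1 and Il12rb2 (chains of the IL-12 receptor), Il18r1 and Il18rap (chains of the IL-18 receptor), Il27ra and Il6st (chains of the IL-27 receptor), Il6ra (which joins Il6st in the IL-6 receptor) and Stat4 (the transcription factor that the IL-12 receptor activates). These are 8 of 55401 gene identifiers counted, and all 8 were among the 16426 genes with enough counts to be tested.

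The IL-12 receptor needs both of its chains and signals through the kinases TYK2 and JAK2 to STAT4; its beta 1 chain, the product of Il12rb1, also serves the IL-23 receptor. IL-18 binds the product of Il18r1 and signals once the accessory chain encoded by Il18rap joins, through MYD88 and IRAK kinases, and together with IL-12 it is known for driving interferon gamma in CD8 T cells. IL-27 binds a pair of the product of Il27ra and gp130, the product of Il6st, and signals through STAT3, and it is known for inducing IL-10 and inhibitory receptors in T cells. IL-6 uses gp130 with the product of Il6ra, so the IL-6 and IL-27 receptors share a chain.

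OT-I mice carry a transgenic T cell receptor for an ovalbumin peptide, so the cells share 1 antigen specificity, and every library here has the OT-I genotype. There were 3 libraries in each of 4 groups. Naive cells came straight from lymph nodes of OT-I mice that had no tumour. Effector cells had been stimulated with antigen for 5 days in vitro. Day 4 and day 14 cells, which the labels call exhausted, were CD44+ OT-I cells sorted from B78ChOVA melanomas of C57Bl6/J hosts at 4 or 14 days after adoptive transfer. The tumour groups were thus sorted on CD44, while the labels give no such gate for the others. The labels do not say that replicates came from separate animals or cultures, so the p-values measure only the spread between these samples, which may be technical.

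Gene counts per library ran from 11937053 to 17094006. T cell markers (Cd3d, Cd3e, Cd3g, Cd8a, Cd8b1 and Trac) were all present in every group, with sums of 3501 to 3861 counts scaled to a common library size (CPM) in naive, 4287 to 4709 in effector, 2341 to 2844 in day 4 and 3274 to 3425 CPM in day 14 libraries. Melanoma markers, led over all libraries by Dct, summed to 26.3 to 32.8 CPM in naive and 36.8 to 42.4 CPM in effector libraries, but to 687 to 1030 CPM at day 4 and 425.5 to 1659 CPM at day 14. In naive and effector cells most of that sum was Pmel, with means of 27.9 and 37.5 CPM, against 1.12 and 0.759 CPM for Dct. Markers of macrophages and monocytes, led over all libraries by Apoe, summed to 14.5 to 27.6, 6.19 to 10.1, 64.7 to 136 and 67.1 to 121 CPM in naive, effector, day 4 and day 14 libraries. In naive and effector cells Cd68 had means of 6.95 and 4.32 CPM, and Apoe 4.26 and 3.66 CPM. Dendritic cell and MHC class II markers, led over all libraries by Cd74, summed to 12.2 to 31.8, 6.40 to 17.6, 134 to 175 and 165 to 202 CPM in naive, effector, day 4 and day 14 libraries. Natural killer cells also carry these receptors, and their 4 markers summed to at most 0.796 CPM in any library, with Ncr1 at 0 in the naive, effector and day 4 groups. Against naive cells, 8 of 8 melanoma markers were called higher at day 4 and 8 at day 14, 4 and 3 of 11 tested macrophage markers, and 6 and 7 of 7 dendritic cell and MHC class II markers. Over all genes tested, 33.4% were called higher at day 4 and 33.6% at day 14. Against effector cells, 8 melanoma markers were called higher at day 4 and 8 at day 14. So were 10 and 9 macrophage markers, and 5 and 5 dendritic cell and MHC class II markers. The shares over all genes tested were 32.7% and 32.6% there. In effector libraries Tyr, Tyrp1, Sox10, C1qa, C1qb and C1qc were at 0. B cell markers summed to at most 21.3 CPM, markers of CD4 T cells and Treg to at most 18.1 CPM, fibroblast markers to at most 23.4 CPM and neutrophil markers to at most 1.20 CPM in any library. Erythroid markers summed to at most 22.5 CPM. Endothelium markers, led by Pecam1, summed to 178 to 198 CPM in naive and 177 to 187 CPM in effector libraries. They summed to 64.0 to 87.9 CPM at day 4 and 43.9 to 62.3 CPM at day 14. Against naive cells, 1 of their 2 tested genes was called higher and 1 lower at each time. Vwf had means of 0.0521 CPM in naive, 5.11 CPM in day 4 and 3.79 CPM in day 14 cells. The part of other cells in the differences between tumour and other groups was not tested.

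**Figure D1:**
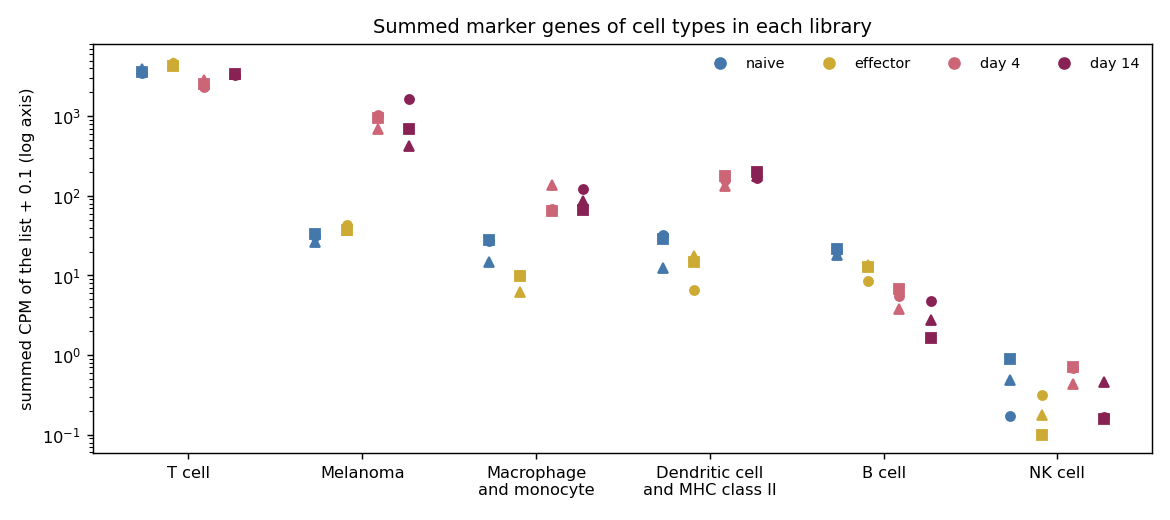
Summed CPM of marker genes in each library (log axis, 0.1 added), by cell type, with colours for groups and symbols for replicates (circle 1, square 2, triangle 3). Melanoma, macrophage and MHC class II sums were higher in all 6 tumour libraries than in the other 6, and natural killer cell sums stayed below 1 CPM.

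The receptors of IL-18 and of IL-6 and IL-27 moved in opposite directions. Both IL-18 receptor chains were several-fold higher in cells from tumours than in naive or effector cells. Il27ra, Il6ra and Il6st were lower there, and Il6ra rested on few counts at day 14. The IL-12 receptor was split: Il12rb2 rose in effector cells and stayed above its naive level in tumours, while Il12rb1 was lowest at day 4 and higher again at day 14.

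Errors of log2 fold changes are standard errors (SE) derived from the test, as the absolute log2 fold change over the square root of edgeR's F statistic. Errors of levels are SD over the 3 libraries of a group. Genes were called at a Benjamini-Hochberg adjusted p under 0.05 in edgeR's quasi-likelihood test over all genes tested. Of the 8 genes, 4 were called between effector and naive cells, where 24.9% of all genes tested were called. There, 2 were higher (14.6% of all genes) and 2 lower (10.4%). At day 4 against naive, 8 were called (62.2% of all genes), 4 higher (33.4%) and 4 lower (28.8%). At day 14 against naive, 7 were called (62.1%), 4 higher (33.6%) and 3 lower (28.5%). At day 4 against effector, 8 were called (61.9%), 2 higher (32.7%) and 6 lower (29.2%). At day 14 against effector, 7 were called (61%), 2 higher (32.6%) and 5 lower (28.4%). Between day 14 and day 4, 3 were called (12.1%), 1 higher (7.17%) and 2 lower (4.91%). The comparisons share groups, so their counts are not independent of each other. The median absolute log2 fold change of the 8 genes was 1.04 in effector against naive cells, 2.41 at day 4 and 2.21 at day 14 against naive cells, and 0.36 between the tumour groups. Over all genes tested it was 0.39, 0.85, 0.83 and 0.28.

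**Figure D2:**
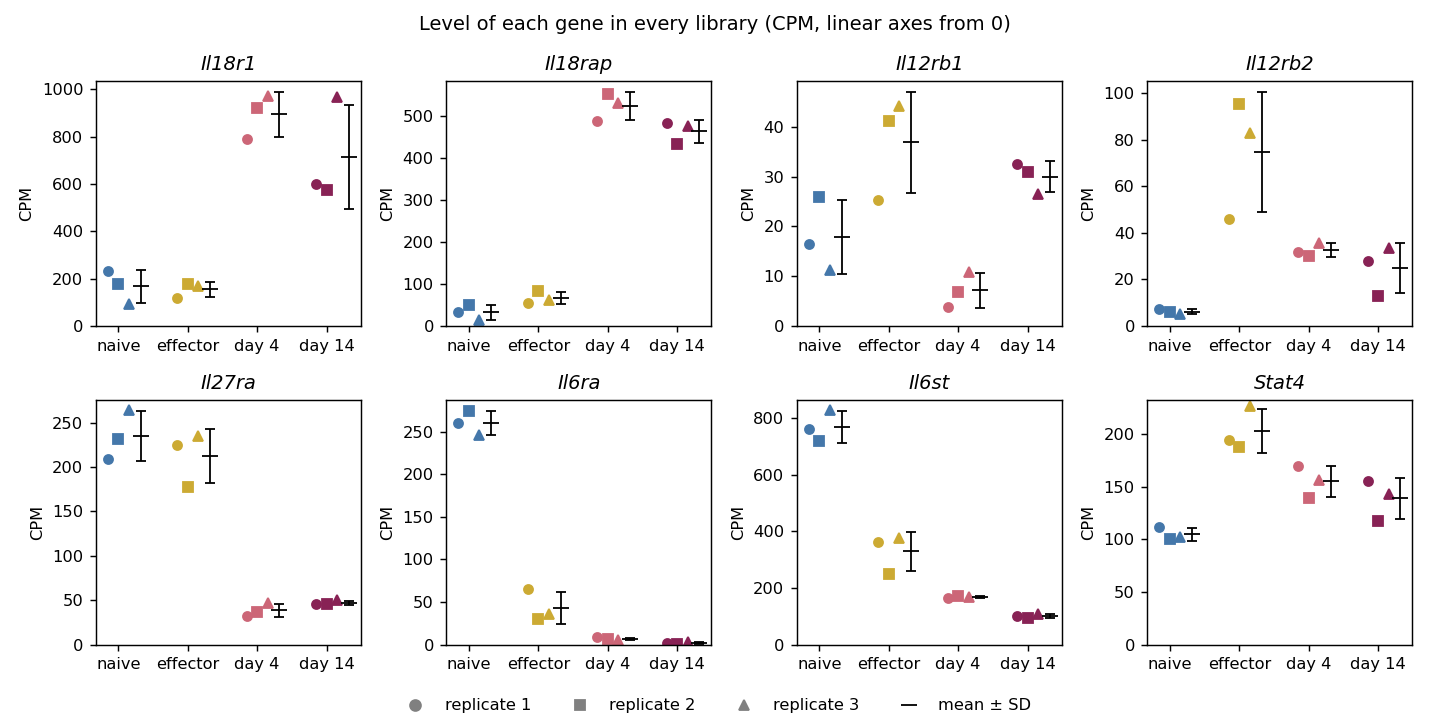
Level of each gene in every library, in CPM on linear axes that start at 0, with the mean and SD of the 3 libraries of a group beside them. Il18r1 and Il18rap were high in the 6 tumour libraries, Il27ra, Il6ra and Il6st were low there, and Il12rb1 dipped at day 4.

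Il18r1 (ENSMUSG00000026070.15) and Il18rap (ENSMUSG00000026068.11) are neighbours on chromosome 1 of GRCm38, on the plus strand, at 40465552 to 40500854 and 40515362 to 40551705, with 14.507 kb between them. Because they rose together, the 250 bases before the first RefSeq start of Il18r1, which has 3, and before that of Il18rap (GRCm38.p6) are shown, 5′ to 3′, at chr1:40465302-40465551 and chr1:40515112-40515361. Neither window held a match to the 4 motifs searched below, so no base is in capitals.
Il18r1: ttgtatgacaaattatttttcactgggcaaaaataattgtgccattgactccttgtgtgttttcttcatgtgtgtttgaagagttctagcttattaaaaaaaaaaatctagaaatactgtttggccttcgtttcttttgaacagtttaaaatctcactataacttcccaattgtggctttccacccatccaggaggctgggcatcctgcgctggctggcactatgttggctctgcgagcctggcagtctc
Il18rap: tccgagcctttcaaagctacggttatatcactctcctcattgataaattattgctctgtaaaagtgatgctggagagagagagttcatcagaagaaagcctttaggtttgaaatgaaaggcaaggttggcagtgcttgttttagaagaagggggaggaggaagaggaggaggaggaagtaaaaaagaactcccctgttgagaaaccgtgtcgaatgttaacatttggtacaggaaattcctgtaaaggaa
The share of G and C was 40.8% in this Il18r1 window, 50.4% and 56.4% in those of its later starts, and 42.0% in the Il18rap window. The median of 32536 mouse windows of this length was 52.4%.

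Il18r1, the ligand-binding chain of the IL-18 receptor, stood at 232.8, 177.5 and 92.0 CPM in naive replicates 1, 2 and 3, and at 119.7, 175.8 and 169.6 CPM in effector replicates. It stood at 789, 923 and 973 CPM in the day 4 libraries and at 599, 574 and 969 CPM in the day 14 libraries. All 6 tumour libraries lay above all 6 others, while naive overlapped effector and day 4 overlapped day 14. In CPM, a lower share of expressing cells and less RNA per cell cannot be told apart, here and below. Against naive cells, Il18r1 rose 5.35-fold at day 4 (log2 fold change 2.42 ± 0.35, edgeR adjusted p = 0.000304) and 4.26-fold at day 14 (log2 fold change 2.09 ± 0.35, edgeR adjusted p = 0.000704). Against effector cells it rose 5.77-fold at day 4 and 4.61-fold at day 14 (log2 fold changes 2.53 and 2.20, SE 0.36 and 0.35). The difference between effector and naive cells was not called (log2 fold change -0.11 ± 0.34, edgeR adjusted p = 0.864) and changed sign without naive replicate 1 (0.20) or effector replicate 1 (0.0082). Nor was that between day 14 and day 4 (log2 fold change -0.33 ± 0.34, edgeR adjusted p = 0.646). Day 14 replicate 3, the highest of its group, also had the lowest melanoma marker sum of its group, 425.5 CPM against 694 and 1659 CPM. That relation was not tested.

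Il18rap, the accessory chain without which IL-18 does not signal, stood at 33.4, 50.7 and 13.5 CPM in naive replicates and at 55.1, 82.7 and 62.9 CPM in effector replicates. In tumours it stood at 488, 552 and 532 CPM at day 4 and at 483.5, 433 and 477 CPM at day 14. Its 4 groups did not overlap one another, and the tumour libraries lay far above the rest. Il18rap rose 16.1-fold from naive to day 4 (log2 fold change 4.01 ± 0.41, edgeR adjusted p = 2.92e-05) and 14.3-fold from naive to day 14 (log2 fold change 3.84 ± 0.41, edgeR adjusted p = 3.8e-05). It was 7.84-fold and 6.95-fold higher at day 4 and day 14 than in effector cells (log2 fold changes 2.97 and 2.80, SE 0.39 each). The effector to naive difference was 1.04 in log2 (SE 0.38) and was not called (edgeR adjusted p = 0.0793). It was called when edgeR was refitted without naive replicate 2 (1.52, adjusted p = 0.0121) or naive replicate 3 (0.68, adjusted p = 0.0185). DESeq2 called it as well (1.02, adjusted p = 0.0251). The tumour times differed by -0.17 in log2 (SE 0.36, edgeR adjusted p = 0.847).

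The coefficient of variation of Il18r1 was 42.4% over the naive libraries and 19.8% over the effector ones, against 10.7% at day 4 and 31.0% at day 14. That of Il18rap was 57.2% and 21.3%, against 6.23% and 5.84%. Among naive libraries, replicate 3 was the lowest for both chains and for Il12rb1, Il12rb2 and Il6ra, and the highest for Il27ra and Il6st. It also had the lowest macrophage marker sum (14.5 CPM against 27.1 and 27.6) and the lowest erythroid marker sum (4.13 CPM against 22.5 and 16.0) among naive libraries. The part of those cells in the spread was not tested.

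Il12rb2 (ENSMUSG00000018341.12) lies on chromosome 6 at 67291318 to 67376188, on the minus strand. Its exons span 3794 bases, of which 1519 are shared with exons of Serbp1 on the opposite strand, and Serbp1 had up to 36553 counts in a library. The counts carry no strand, so reads of both genes cannot be told apart over the shared bases. The count files keep reads that are ambiguous between genes in a separate line, 3.22% to 3.81% of reads per library. Reads over the shared bases were taken to fall there and not under Il12rb2, so levels per length use the 2275 unshared bases. Whether any Serbp1 reads remained in the Il12rb2 counts was not tested. The 250 bases before its RefSeq start, at chr6:67376189-67376438 (minus strand), are shown because they hold the 1 STAT match among the windows printed here. Capitals mark TTCTCAGAA, a match to the STAT motif TTCNNNGAA, at 123 to 115 bases before the start.
Il12rb2: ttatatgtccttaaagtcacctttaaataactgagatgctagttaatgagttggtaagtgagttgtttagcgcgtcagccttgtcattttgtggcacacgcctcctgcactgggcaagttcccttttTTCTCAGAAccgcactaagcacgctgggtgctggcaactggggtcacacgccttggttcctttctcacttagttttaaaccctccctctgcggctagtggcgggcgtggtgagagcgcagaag
The same motif, searched on both strands, was present in 7.04% of the 32536 windows of this length. A match describes the letters and does not show a bound site.

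Il12rb2, the chain of the IL-12 receptor that recruits STAT4, was lowest in naive cells, at 7.39, 6.05 and 5.05 CPM. Effector replicates had 45.9, 95.2 and 83.0 CPM, day 4 replicates 31.98, 30.04 and 35.8 CPM, and day 14 replicates 28.1, 13.0 and 33.5 CPM. Every effector library lay above every tumour library, and every tumour library above every naive one, while day 4 and day 14 overlapped. The rise from naive to effector cells was 12.1-fold (log2 fold change 3.59 ± 0.38, edgeR adjusted p = 7.46e-05). Day 4 cells were 5.28-fold and day 14 cells 4.02-fold above naive cells (log2 fold changes 2.40 and 2.01, SE 0.37 each, edgeR adjusted p = 0.000213 and 0.000736). From the effector level, Il12rb2 was 2.29-fold lower at day 4 (log2 fold change -1.19 ± 0.33, edgeR adjusted p = 0.00949) and 3.003-fold lower at day 14 (log2 fold change -1.59 ± 0.34, edgeR adjusted p = 0.00197). The tumour times differed by -0.39 in log2 (SE 0.34, edgeR adjusted p = 0.555), with day 14 replicate 2 below the rest.

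Il12rb1 (ENSMUSG00000000791.9; chromosome 8, 70808449 to 70821424, plus strand), the chain shared with the IL-23 receptor, followed another course. Naive replicates had 16.4, 25.8 and 11.3 CPM, effector replicates 25.3, 41.1 and 44.2 CPM, day 4 replicates 3.81, 6.85 and 10.8 CPM, and day 14 replicates 32.4, 30.9 and 26.5 CPM. Day 4 libraries were lower than all others, day 14 libraries lay above the naive ones, and effector cells overlapped both naive and day 14 cells. Il12rb1 was 2.49-fold lower at day 4 than in naive cells (log2 fold change -1.31 ± 0.38, edgeR adjusted p = 0.00999) and 5.14-fold lower than in effector cells (log2 fold change -2.36 ± 0.38, edgeR adjusted p = 0.000218). It then was 4.17-fold higher at day 14 than at day 4 (log2 fold change 2.06 ± 0.38, edgeR adjusted p = 0.00421), and it was the 1 gene of the 8 called higher between these times. Day 14 and effector cells differed by -0.30 in log2 (SE 0.35, edgeR adjusted p = 0.483).

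For Il12rb1, 2 differences sat near the threshold. Effector cells were above naive cells by 1.05 in log2 (SE 0.36), which was not called (edgeR adjusted p = 0.0545). It was called without naive replicate 2 (adjusted p = 0.0175), effector replicate 1 (0.0372), day 4 replicate 1 (0.0224) or day 4 replicate 3 (0.0334) in edgeR, with no filter on low counts, and by DESeq2 (0.00595). Day 14 cells were above naive cells by 0.75 (SE 0.36), again not called (edgeR adjusted p = 0.0900), although the groups did not overlap. That difference was called without naive replicate 2 (1.12, adjusted p = 0.0178) or day 4 replicate 1 (0.76, adjusted p = 0.0409) in edgeR, in a fit of the compared groups alone (adjusted p = 0.0268), and by DESeq2 (adjusted p = 0.0263).

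Stat4 (ENSMUSG00000062939.11; chromosome 1, 51987148 to 52107189, plus strand), which carries the IL-12 signal to the nucleus, changed least of the 8 genes in its range over the groups. It stood at 112, 100.4 and 102 CPM in naive, 194.7, 187.9 and 226.5 CPM in effector, 169, 139.5 and 156 CPM in day 4 and 156, 118 and 143 CPM in day 14 libraries. Naive libraries were the lowest and effector libraries the highest, without overlap with the tumour groups, which overlapped each other. Stat4 was 1.94-fold higher in effector than in naive cells (log2 fold change 0.95 ± 0.11, edgeR adjusted p = 1.5e-05), 1.48-fold higher at day 4 (0.56 ± 0.11, adjusted p = 0.000356) and 1.33-fold higher at day 14 (0.41 ± 0.11, adjusted p = 0.00470). It was lower than in effector cells at day 4 (log2 fold change -0.39 ± 0.11, edgeR adjusted p = 0.00605) and at day 14 (-0.55 ± 0.11, adjusted p = 0.000460). The day 4 call was lost without effector replicate 3 (adjusted p = 0.0755) or day 4 replicate 2 (0.0727) in edgeR. Between the tumour times Stat4 differed by -0.16 in log2 (SE 0.11, edgeR adjusted p = 0.431).

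Il27ra (ENSMUSG00000005465.9; chromosome 8, 84030294 to 84042589, minus strand) encodes the chain that is particular to the IL-27 receptor. Naive replicates had 208.5, 231 and 264 CPM and effector replicates 224.7, 177 and 235 CPM. Day 4 replicates had 32.4, 36.9 and 46.8 CPM and day 14 replicates 46.1, 45.2 and 49.8 CPM. Naive and effector cells overlapped, the tumour times overlapped, and every tumour library was below every other library. Il27ra was 6.06-fold lower at day 4 and 4.99-fold lower at day 14 than in naive cells (log2 fold changes -2.60 and -2.32, SE 0.14 each, edgeR adjusted p = 3.73e-10 and 1.13e-09). It was 5.48-fold and 4.52-fold lower than in effector cells (log2 fold changes -2.45 and -2.17, SE 0.14 each, edgeR adjusted p = 6.13e-10 and 2.36e-09). Effector and naive cells differed by -0.14 in log2 (SE 0.13, edgeR adjusted p = 0.471), and day 14 and day 4 by 0.28 (SE 0.14, edgeR adjusted p = 0.225). Neither difference was called.

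Il6st (ENSMUSG00000021756.12; chromosome 13, 112464070 to 112510086, plus strand) and Il6ra (ENSMUSG00000027947.11; chromosome 3, 89864059 to 89913196, minus strand) fell in all 6 comparisons. Because they fell together, the 250 bases before their RefSeq starts are shown, at chr13:112463820-112464069 (plus strand) and chr3:89913197-89913446 (minus strand). Capitals mark a match to the T-box motif AGGTGT in the Il6ra window, at 191 to 186 bases before the start.
Il6st: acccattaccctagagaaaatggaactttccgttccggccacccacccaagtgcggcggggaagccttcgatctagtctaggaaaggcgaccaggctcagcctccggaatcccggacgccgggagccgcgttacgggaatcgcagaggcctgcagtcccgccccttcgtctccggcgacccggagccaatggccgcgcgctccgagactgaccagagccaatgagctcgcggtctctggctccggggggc
Il6ra: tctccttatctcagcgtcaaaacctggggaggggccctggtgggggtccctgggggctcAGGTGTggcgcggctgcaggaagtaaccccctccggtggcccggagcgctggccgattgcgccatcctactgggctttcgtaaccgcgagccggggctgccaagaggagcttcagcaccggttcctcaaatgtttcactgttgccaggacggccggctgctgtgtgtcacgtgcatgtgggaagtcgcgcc
Both windows were rich in G and C, at 66.0% for Il6st and 65.2% for Il6ra. The T-box motif was present in 11.9% of the 32536 windows.

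The motifs searched on both strands were STAT (TTCNNNGAA), AP-1 (TGANTCA, in 6.73% of windows), T-box (AGGTGT) and RUNX (TGTGGT, in 14.0% of windows), and none overlapped another in these windows. RefSeq windows were matched for 6 of the 8 genes, all but Il12rb1 and Il27ra. AP-1 and RUNX letters were in none of the windows of the 6 genes. The last of the RefSeq starts of Il18r1 had STAT matches TTCTGGGAA at 219 to 211 and TTCCCAGAA at 152 to 144 bases before it.

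Il6st, the signalling chain gp130 that the IL-6 and IL-27 receptors share, stood at 763, 718 and 829 CPM in naive and at 362, 249 and 376 CPM in effector libraries. It stood at 163, 173 and 168.5 CPM at day 4 and at 101, 95.3 and 107 CPM at day 14. The groups were ordered naive, effector, day 4 and day 14 from high to low, without overlap. Il6st was 2.34-fold lower in effector than in naive cells (log2 fold change -1.23 ± 0.12, edgeR adjusted p = 3.07e-06), 4.58-fold lower at day 4 (-2.20 ± 0.13, adjusted p = 4.92e-10) and 7.61-fold lower at day 14 (-2.93 ± 0.13, adjusted p = 2.95e-11). Day 4 and day 14 cells were 1.96-fold and 3.25-fold below effector cells (log2 fold changes -0.97 and -1.70, SE 0.12 each). The step from day 4 to day 14 was called as well (log2 fold change -0.73 ± 0.12, edgeR adjusted p = 0.000766).

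Il6ra, the chain that binds IL-6, spanned the widest range of the 8 genes. Naive replicates had 260.3, 274 and 246 CPM, effector replicates 64.9, 29.7 and 35.8 CPM, day 4 replicates 8.29, 6.01 and 5.68 CPM, and day 14 replicates 1.45, 1.12 and 3.03 CPM. The order of the groups was that of Il6st, again without overlap, and the day 14 values rest on 19 to 50 counts per library. Il6ra was 5.97-fold lower in effector than in naive cells (log2 fold change -2.58 ± 0.31, edgeR adjusted p = 0.000260), 39.2-fold lower at day 4 (-5.29 ± 0.36, adjusted p = 6.89e-07) and 139-fold lower at day 14 (-7.11 ± 0.41, adjusted p = 2.04e-07). Against effector cells it was 6.56-fold lower at day 4 and 23.2-fold lower at day 14 (log2 fold changes -2.71 and -4.54, SE 0.34 and 0.40). Between day 14 and day 4 it was 3.54-fold lower (log2 fold change -1.82 ± 0.43, edgeR adjusted p = 0.0209). That last call was lost without day 4 replicate 1 (adjusted p = 0.0849), day 4 replicate 2 (0.0517), day 14 replicate 1 (0.0867) or day 14 replicate 2 (0.0784), and with no filter on low counts (0.0544), in edgeR.

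**Figure D3:**
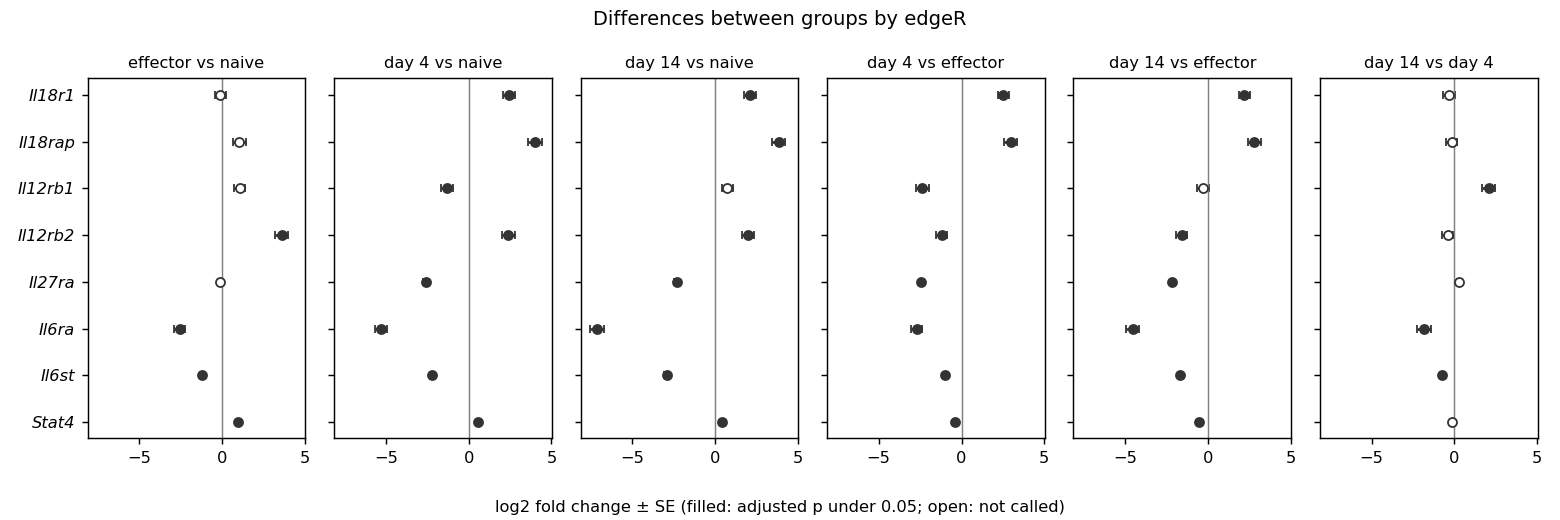
Log2 fold change of each gene in the 6 comparisons by edgeR, with its SE as a bar; filled points have an adjusted p under 0.05 and open points were not called. Il6ra and Il6st lay to the left of 0 in every panel, and the IL-18 receptor chains lay to the right wherever a tumour group was set against naive or effector cells.

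Counts of groups without overlap add to these calls. Effector and naive libraries did not overlap for 5 of the 8 genes, against 40.2% of all genes tested. Day 4 and naive libraries did not overlap for 8 (68.4% of all genes), and day 14 and naive libraries for 8 (68.5%). Against effector libraries these counts were 8 at day 4 (67.6%) and 7 at day 14 (66.5%). Between the tumour times there was no overlap for 4 genes, Il12rb1, Il18rap, Il6ra and Il6st (30.5% of all genes).

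Levels of different genes were compared as CPM per kb of exon not shared with another gene. For Stat4, 1033 of 3872 exon bases are shared with Gm28177, which had at most 49 counts in a library. Stat4 levels per kb thus use 2839 bases. The full length would lower them, and the place of Stat4 in the order with that length was not tested. In naive cells Il6st (69.4 ± 5.05 CPM per kb, SD, n = 3) and Il27ra (67.2 ± 8.04) led and overlapped. Stat4 (36.9 ± 2.21), Il18r1 (34.8 ± 14.7) and Il6ra (31.0 ± 1.70) followed, with overlap between neighbours, and Il18rap (4.82 ± 2.76), Il12rb1 (4.35 ± 1.79) and Il12rb2 (2.71 ± 0.516) came last. In effector cells Stat4 (71.5 ± 7.27) and Il27ra (60.8 ± 8.84) led and overlapped, then Il12rb2 (32.8 ± 11.3), Il18r1 (32.2 ± 6.39) and Il6st (29.7 ± 6.25), which overlapped. Il18rap (9.91 ± 2.11), Il12rb1 (8.98 ± 2.47) and Il6ra (5.18 ± 2.24) were lowest there.

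In both tumour groups the per-length order began with Il18r1, Il18rap and Stat4, each above the next in every library. Their levels were 186 ± 19.8, 77.6 ± 4.83 and 54.6 ± 5.29 CPM per kb at day 4, and 148 ± 45.9, 68.8 ± 4.02 and 48.95 ± 6.83 at day 14 (SD, n = 3). Il6st (15.1 ± 0.448), Il12rb2 (14.3 ± 1.29) and Il27ra (11.1 ± 2.11) came next at day 4, each overlapping its neighbour, and Il12rb1 (1.74 ± 0.848) and Il6ra (0.793 ± 0.169) were last. At day 14 Il27ra (13.5 ± 0.695), Il12rb2 (10.9 ± 4.68) and Il6st (9.12 ± 0.532) held the middle, followed by Il12rb1 (7.29 ± 0.755). Il6ra was last again, at 0.222 ± 0.121 CPM per kb.

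Ratios of partner chains within a library were described without a test. Il12rb2 per kb over Il12rb1 per kb was 0.423 to 0.813 in naive, 3.27 to 4.18 in effector, 6.01 to 15.1 in day 4 and 0.758 to 2.29 in day 14 libraries. The 2 chains were thus most unequal at day 4, and the day 4 and day 14 ranges did not overlap. With the full exon length of Il12rb2, a choice made after seeing the overlap with Serbp1, the group means were 0.408, 2.17, 5.81 and 0.921 in place of 0.680, 3.61, 9.68 and 1.54, in the same order of groups. The full length would apply only if reads over the shared bases had been counted for Il12rb2. With the unshared length the day 14 ratios ran from 0.758 to 2.29, so neither chain was higher in every day 14 library.

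The ratio of Il18rap to Il18r1 per kb was below 1 in every library. It was 0.102 to 0.204 in naive, 0.264 to 0.336 in effector, 0.390 to 0.442 in day 4 and 0.351 to 0.576 in day 14 libraries. Tumour libraries were all above the others, so the accessory chain gained on the ligand-binding chain. Il6ra over Il6st was 0.392 to 0.505, 0.126 to 0.237, 0.0445 to 0.0672 and 0.0155 to 0.0373 over the same groups, a fall at each step without overlap. Il27ra over Il6st was 0.868 to 1.02 in naive, 1.97 to 2.26 in effector, 0.632 to 0.883 in day 4 and 1.45 to 1.51 in day 14 libraries. It was above 1 in all effector and day 14 libraries, and the day 4 range lay under the day 14 range. Its side of 1 depends on the annotated exon lengths used, 3.493 kb for Il27ra and 11.099 kb for Il6st. In mean CPM, Il6st was above Il27ra in every group, as in effector (329 against 212) and day 14 cells (101 against 47.0). Which exons the transcripts held was not tested.

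**Figure D4:**
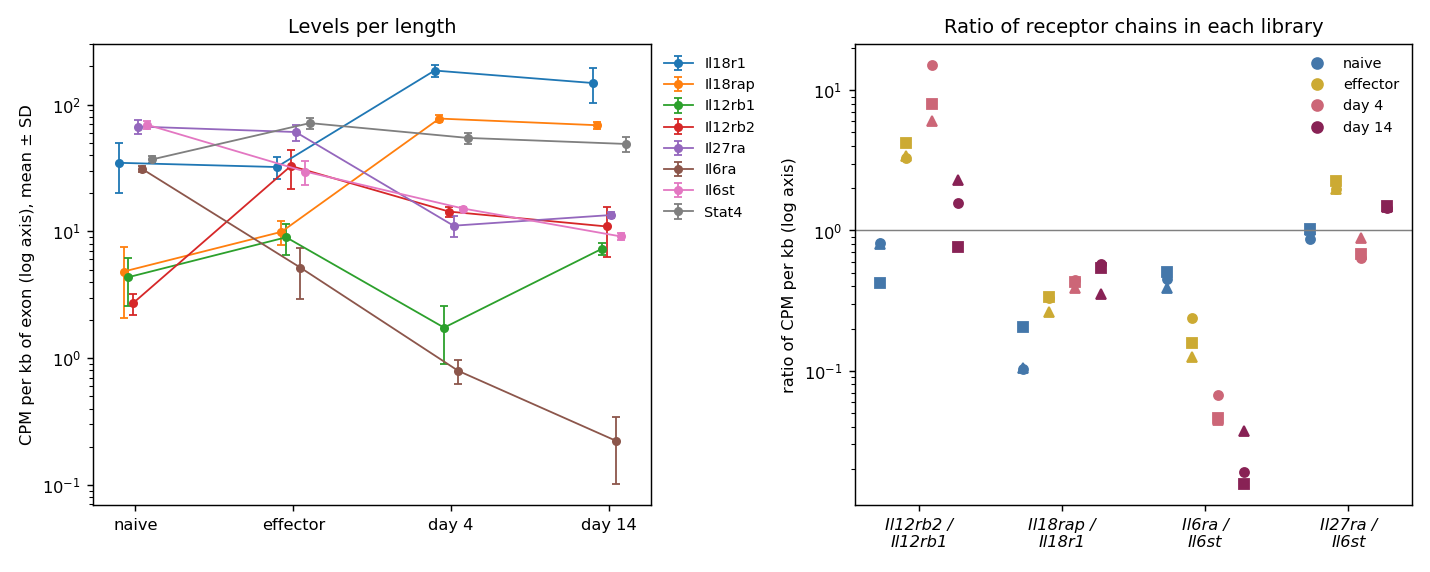
Left, mean and SD (n = 3) of CPM per kb of unshared exon for each gene and group on a log axis, with lines that only join the values of a gene. Right, ratio of partner chains in each library on a log axis (symbols for replicates, circle 1, square 2, triangle 3), where the Il12rb2 to Il12rb1 ratio peaked at day 4 and the Il6ra to Il6st ratio fell from group to group.

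The 8 genes differed from one another in their course over the 12 libraries. As a measure of likeness, log2 CPM was centred on its mean for each gene, and the root mean square (RMS) difference between genes was taken, so that smaller values mean more alike courses. Among pairs of the 8, Il27ra and Il6st (0.59) and Il18r1 and Il18rap (0.79) were closest, and Il18rap and Il6ra (4.49) were farthest apart. The 2 IL-12 receptor chains differed by 1.49, while Il12rb2 and Il12rb1 lay 0.99 and 1.02 from Stat4. Courses were centred but not scaled to a common range. A gene that changed little, as Stat4 did, can therefore lie near genes of unlike courses. Stat4 was 1.27 from Il18r1 and 1.27 from Il6st, which were 2.23 from each other. Among 6759 genes with a mean log2 CPM of at least 4, the nearest to Stat4 was Ube2b (0.13), followed by Ifnar1 (0.15) and Ssbp3 (0.17). Nearest to Il27ra were Arhgap4 (0.15), Slfn8 (0.18) and Prkd2 (0.21), and nearest to Il6st were Dph5 (0.24), Dzip1 (0.24) and Spice1 (0.30). Tipin (0.32), Atad5 (0.32) and Orc6 (0.33) were nearest to Il18r1, and Axl (0.39), Brca1 (0.40) and Diaph3 (0.41) to Il18rap. Il12rb1 was nearest to Nbeal2 (0.46), Padi2 (0.47) and F2r (0.51). Il12rb2, with Cxcr3 (0.62), Scpep1 (0.64) and Myb (0.67), and Il6ra, with Klf3 (0.62), Tdrp (0.79) and Tlr1 (0.89), had the least close neighbours. Libraries share depth and group differences, so these values describe the course only.

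Several ligand genes had few counts, among them Il12a, Il12b, Il23a, Il27, Il6 and Il18. Of 11 ligands and soluble inhibitors listed, 8 were tested. Over all genes tested, 14.6% were called higher and 10.4% lower in effector against naive cells. At day 4 against naive these shares were 33.4% and 28.8%, and at day 14 33.6% and 28.5%. Against effector cells they were 32.7% and 29.2% at day 4, and 32.6% and 28.4% at day 14. Between the tumour times they were 7.17% and 4.91%. These shares also apply to the lists that follow. Against naive cells, 2 of these 8 list genes were higher and 1 lower in effector cells, and 5 were higher and 2 lower both at day 4 and at day 14. Against effector cells, 3 were higher and 2 lower at day 4, and 1 was higher and 2 lower at day 14. Between day 14 and day 4, 1 was lower and 0 were higher (edgeR; 0 at an unadjusted p under 0.05 and 0 with DESeq2). Their median log2 fold change was 0.65 at day 4 and 0.11 at day 14 against effector cells, and -0.71 between the tumour times, where all genes tested had medians of 0.06, 0.06 and -0.004. Against naive cells it was 1.53, 5.64 and 4.86 as fitted for effector, day 4 and day 14 (all genes 0.01, 0.03 and 0.04). With Il12b, Il23a and Ebi3, which had no naive count, set to their bounds, it was 0.00, 4.06 and 2.90.

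Ebi3, the subunit of IL-27 that pairs with p28, had no count in naive libraries and 61, 154 and 100 counts in effector, day 4 and day 14 libraries. Set against a floor of 3 counts over the naive group, that is at least 20.7-fold, 44.4-fold and 26.8-fold higher. Il27, which encodes p28, had at most 2 counts in a library. Il12b, the p40 subunit of IL-12 and IL-23, had 115 counts at day 4, at least 33.2-fold above naive cells, and day 4 replicate 2 alone held 96 of them (5.77 CPM against 0.367 and 0.935 CPM). Il12a, the other IL-12 subunit, had at most 9 counts in a library and was not tested. Il18 had 1, 37, 51 and 41 counts in the 4 groups, a ratio of counts of 44.1 between day 4 and naive cells (95% interval 7.57 to 1777, counting error only). Il18bp, which neutralises IL-18, was called in no comparison (edgeR adjusted p 0.157 to 0.940) and stood at 12.9 ± 1.45, 11.4 ± 2.998, 10.4 ± 0.400 and 10.1 ± 1.55 CPM. Lif, a cytokine of the gp130 family, was at 10.9 ± 6.03 CPM at day 4 and 0.163 ± 0.142 CPM in effector cells (log2 fold change 6.04 ± 0.70, edgeR adjusted p = 1.83e-06). Clcf1, also of that family, fell from 160.1 ± 17.7 in naive to 38.8 ± 5.27 CPM at day 14 (log2 fold change -2.04, edgeR adjusted p = 5.8e-09). Macrophage marker sums were higher in the tumour libraries, as given above, and the part of such cells in these ligand counts was not tested.

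Of 12 related receptors listed, 7 were tested. In effector against naive cells 0 were higher and 1 was lower. At day 4 and at day 14 against naive cells 4 were higher and 3 lower. Against effector cells 5 were higher and 2 lower at day 4, and 4 were higher and 2 lower at day 14. Between the tumour times 0 were higher and 2 lower. Both counts of 0 in edgeR were also 0 at an unadjusted p under 0.05 and 0 with DESeq2. The median log2 fold changes were 0.22, 0.65, 0.46, 2.55, 1.60 and -0.22, beside 0.01, 0.03, 0.04, 0.06, 0.06 and -0.004 over all genes tested. Il1rl1, the IL-33 receptor of the same family as Il18r1, was at 67.0, 76.5 and 95.8 CPM at day 4, at 10.4, 12.5 and 48.3 CPM at day 14, and at no more than 0.430 CPM in any naive or effector library. Its log2 fold change from naive to day 4 was 9.19 ± 1.01 (edgeR adjusted p = 4.3e-05), and 9.89 without naive replicate 3. The decoy IL-1 receptor Il1r2 was at 56.6 ± 17.1 and 69.5 ± 18.6 CPM at day 4 and day 14, with 3 counts in all naive libraries together. Lifr, a partner of gp130 in the LIF receptor, was at 4.74 ± 0.935 CPM at day 4 and 0.305 ± 0.0653 CPM in naive cells (log2 fold change 3.92 ± 0.62, edgeR adjusted p = 4.09e-05). Il1rl2, the IL-36 receptor, fell from 16.9 ± 4.64 CPM in naive to 1.03 ± 0.300 CPM in effector cells (log2 fold change -4.04 ± 0.32, edgeR adjusted p = 3.42e-07). Il23r, the partner of Il12rb1 in the IL-23 receptor, had at most 4 counts in a library.

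Signal transduction and feedback genes moved in both directions, as did all genes tested. Of 16 listed, 15 were tested. In effector against naive cells 7 were higher and 0 lower (all genes 14.6% and 10.4%). At day 4 these counts were 6 and 3 (33.4% and 28.8%), and at day 14 7 and 3 (33.6% and 28.5%). Against effector cells 5 were higher and 7 lower at day 4 (32.7% and 29.2%), and 5 and 5 at day 14 (32.6% and 28.4%). Between the tumour times 3 were higher and 0 lower (7.17% and 4.91%). The counts of 0 in edgeR were 0 and 1 at an unadjusted p under 0.05, and 0 with DESeq2. Median log2 fold changes were 0.36, -0.03, 0.39, -0.19, 0.07 and 0.26 in the same order, beside 0.01, 0.03, 0.04, 0.06, 0.06 and -0.004 over all genes tested. Stat3, a transcription factor downstream of gp130, was at 196 ± 36.4 and 196 ± 17.8 CPM in naive and effector cells, and at 941 ± 131 and 1196 ± 120.0 CPM at day 4 and day 14 (log2 fold change at day 14 against naive 2.61 ± 0.14, edgeR adjusted p = 4.56e-10). Of the IL-12 receptor kinases, Jak2 rose from 139 ± 0.898 in naive to 415 ± 41.1 CPM at day 4 (log2 fold change 1.58 ± 0.11, edgeR adjusted p = 3.45e-09). Tyk2 was at 73.6 ± 8.36 CPM at day 4 and 120.3 ± 12.7 CPM at day 14 (log2 fold change 0.71 ± 0.12, edgeR adjusted p = 0.000772). Jak1, the kinase of gp130 receptors, fell from 1497 ± 137 CPM in effector to 510 ± 36.2 CPM at day 4 (log2 fold change -1.55 ± 0.08, edgeR adjusted p = 2.1e-10). Irak2, a kinase downstream of MYD88, rose from 9.89 ± 0.843 in naive to 66.2 ± 14.1 CPM at day 14 (log2 fold change 2.74 ± 0.21, edgeR adjusted p = 1.63e-08), while Myd88 itself was called in no comparison (log2 fold changes -0.03 to 0.08, edgeR adjusted p 0.711 to 0.988).

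Genes known to be induced by IL-12 or IL-18 in T cells were mostly higher in tumours. Their choice was made with earlier results of these data known, and the part of IL-12 or IL-18 was not tested. Of 11 listed, 10 were tested. Against naive cells 4 were higher in effector cells (14.6% of all genes), 8 at day 4 (33.4%) and 8 at day 14 (33.6%), with 0 lower in each. Against effector cells 7 were higher and 1 lower at day 4 (all genes 32.7% and 29.2%), and 9 higher and 0 lower at day 14 (32.6% and 28.4%). Between the tumour times 3 were higher and 1 lower (7.17% and 4.91%). Where edgeR called 0 lower, 0 were lower at an unadjusted p under 0.05 and 0 with DESeq2, except for 1 at an unadjusted p at day 4 against naive cells. Median log2 fold changes were 1.28, 4.45, 4.49, 2.13, 2.38 and 0.58 in the same order, beside 0.01, 0.03, 0.04, 0.06, 0.06 and -0.004 over all genes tested. Ifng, the interferon that IL-12 and IL-18 drive, had at most 0.387 CPM in any naive or effector library, 46.2, 44.8 and 52.4 CPM at day 4 and 123, 93.7 and 75.8 CPM at day 14 (log2 fold change of day 14 against effector 8.65 ± 0.42, edgeR adjusted p = 1.8e-09, and 8.06 or 9.23 without effector replicate 1 or 3). Tbx21, the transcription factor T-bet, rose from 3.13 ± 1.31 in naive to 17.6 ± 6.67 CPM in effector cells (log2 fold change 2.49 ± 0.34, edgeR adjusted p = 0.000223). Ccl3, a chemokine, went from 40.2 ± 14.6 CPM at day 4 to 207.5 ± 82.6 CPM at day 14 (log2 fold change 2.37 ± 0.39, edgeR adjusted p = 0.00435). Map3k8, a kinase, fell from 85.5 ± 17.9 to 27.5 ± 10.5 CPM between those times (log2 fold change -1.64 ± 0.25, edgeR adjusted p = 0.000817).

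Most genes known to be induced by IL-27 in T cells were called higher in tumour than in naive cells. The list was chosen with earlier results of these data known, and the part of IL-27 in these differences was not tested. Of 8 listed and tested, 3 were higher in effector cells (14.6% of all genes), 7 at day 4 (33.4%) and 8 at day 14 (33.6%) than in naive cells. Against effector cells 4 were higher at day 4 (32.7%) and 8 at day 14 (32.6%). Between the tumour times 3 were higher (7.17%). At an unadjusted p under 0.05 the counts in effector against naive cells and between the tumour times were 7 each, and with DESeq2 5 each. The call of Lag3 at day 4 against effector cells was lost under 10 of 18 alternatives (edgeR adjusted p = 0.0482). That of Entpd1, not called (edgeR adjusted p = 0.0513), was gained under 9. In edgeR 0 were lower in each of the 6 comparisons, with 0 at an unadjusted p under 0.05 and 0 with DESeq2. Median log2 fold changes were 3.89, 5.73, 8.25, 1.14, 4.09 and 2.07, beside 0.01, 0.03, 0.04, 0.06, 0.06 and -0.004 over all genes tested. With Il10, which had no naive count, at its bound, the first 3 medians of the list were 3.03, 4.16 and 7.65. Il10 had 0, 5, 41 and 953 counts in naive, effector, day 4 and day 14 libraries, at least 255.5-fold higher at day 14 than in naive cells. Its log2 fold change between day 14 and day 4 was 4.41 ± 0.48 (edgeR adjusted p = 4.55e-05), and 5.01 without day 4 replicate 3. Prdm1, the transcription factor Blimp-1, was at 7.85, 14.1 and 37.9 CPM at day 4 and at 213, 211 and 195 CPM at day 14 (log2 fold change 3.37 ± 0.59, edgeR adjusted p = 0.00688, and 4.21 without day 4 replicate 3). Entpd1, the ectoenzyme CD39, rose from 12.04 ± 5.38 to 69.7 ± 21.4 CPM (log2 fold change 2.53 ± 0.38, edgeR adjusted p = 0.00131). The inhibitory receptors Havcr2 and Tigit stood at 1025 ± 207 and 561 ± 31.97 CPM at day 14, against 0.590 ± 0.207 and 0.531 ± 0.244 CPM in naive cells.

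**Figure D5:**
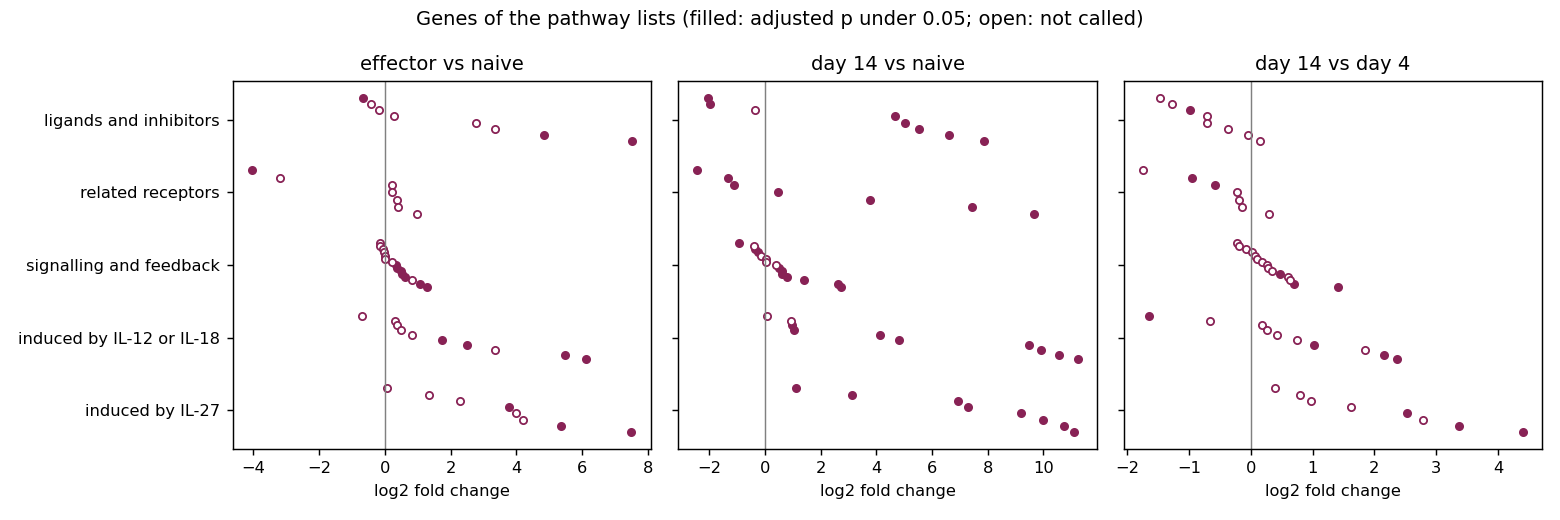
Log2 fold changes of the tested genes of the 5 pathway lists in 3 comparisons, 1 point per gene; filled points have an edgeR adjusted p under 0.05 and open points were not called. Fitted values of genes without a count in a group (Ebi3, Il12b, Il23a and Il10 in naive cells) depend on the fit and are no bound; genes induced by IL-27 lay above 0 in each panel, and signalling genes lay between -0.94 and 2.74.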

How the data were processed

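Poly(A) RNA of 12 OT-I T cell libraries (4 groups of 3, grouped by the labels) was amplified as cDNA and sequenced. The deposited files hold unnormalized counts of reads per gene that the authors made; fastp 0.19.6, STAR 2.6.1b and GRCm38 are named per the submitters' processing notes. How reads were assigned to genes, and with which annotation, is not given in the sources used here. The unstranded column was used, since 49.8% to 49.9% of stranded counts fell on the first strand. The 4 summary lines were left out of library sizes; 20.7% to 30.2% of reads lay outside genes. Symbols and exons come from GENCODE M21 (55141 of 55401 identifiers matched).

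Counts were filtered (filterByExpr), scaled by TMM and fitted in edgeR 4.0.16 (R 4.3.3; quasi-likelihood, robust, all 12 libraries, 8 residual degrees of freedom), with 6 contrasts and Benjamini-Hochberg adjustment over 16426 genes. The fit was tested on simulated data. CPM is counts scaled by TMM library sizes; errors of levels are SD, of fold changes SE. Folds against a group without counts are bounds set against 3 counts in that group, and with 1 to 3 counts a 95% interval of the ratio; both cover counting error only. All 8 genes are named, plus up to 3 called genes with the highest absolute log2 fold change per list and contrast, the 3 nearest genes by likeness, and list genes singled out after their values were seen. The 8 genes, lists and tests were chosen with earlier results of these data known. Alternatives were DESeq2 1.42.0, other scalings, no filter, compared groups alone, a replicate block and leaving out each library.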

Additional observations from a re-analysis of the deposited data

How the results depend on the processing

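Of the 48 log2 fold changes of the 8 genes, 42 kept their direction and their side of the threshold under all 18 alternatives, and 6 did not. Il18r1 in effector against naive cells changed sign without naive replicate 1 (0.20) and without effector replicate 1 (0.0082), was called in neither, and ranged from -0.40 to 0.20 with 1 library left out. Near the threshold were Il12rb1 in effector against naive cells (called under 6 alternatives, adjusted p 0.00595 to 0.0372), Il12rb1 in day 14 against naive cells (4, 0.0178 to 0.0409) and Il18rap in effector against naive cells (3, 0.0121 to 0.0251). Calls lost were Il6ra in day 14 against day 4 (5 alternatives, 0.0517 to 0.0867) and Stat4 in day 4 against effector cells (2, 0.0727 and 0.0755). The cause was not tested. Genes called between day 14 and day 4 numbered 1984, and 1283 to 2206 with 1 library left out, the lowest without day 14 replicate 2. With total counts as scaling, effector against naive cells had 1544 genes higher and 2508 lower (2395 and 1703 with TMM), and the median over genes moved by -0.12. Without a filter the median shifted by 0.12 (day 4 against naive) and 0.22 (day 4 against effector), and by 0.13 with DESeq2 in the latter. No call of the 8 genes changed under these scalings beside those named. Same-numbered replicates showed no clear shared deviation (correlations -0.088 to 0.10 in 18 pairs, against -0.077 to 0.088 for other pairs). Only 3 of 12 libraries were closest to their own number. With 3 libraries per group this check is weak and cannot exclude a pairing, and the labels name none. With a replicate block, all 48 calls of the 8 genes were the same, and 3933, 10054, 10046, 10011, 9887 and 1931 genes were called in the 6 comparisons, against 4098, 10221, 10202, 10174, 10025 and 1984 without it. Depth limits Il6ra at day 14 (19 to 50 counts per library) and the ligand genes Il12a, Il12b, Il23a, Il27, Il6 and Il18. Among the pathway lists, 288 values of tested genes in a comparison were followed, of which 71 changed their call under at least 1 alternative.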
